A study of Homo sapiens with 4 samples.

Results

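The miR-183 cluster (miR-183, miR-96 and miR-182) and the miR-200 family are groups of miRNAs that mark epithelial cells, and their main arms were examined here in the extracellular vesicles (EVs) released by PC3 cells. The 8 members were taken by name as the main arm of each hairpin (hsa-miR-182-5p, hsa-miR-183-5p, hsa-miR-96-5p, hsa-miR-200a-3p, hsa-miR-200b-3p, hsa-miR-200c-3p, hsa-miR-141-3p and hsa-miR-429, written below without the prefix), and all 8 are among the 2588 miRNA names of the small RNA count table. PC3 is a cell line established from a bone metastasis of a prostate adenocarcinoma. All libraries come from EVs of PC3 cells with no treatment named, cultured in DMEM with 10% FBS and moved for collection to medium with exosome-free FBS. By the study's methods EVs were isolated with the exoEasy kit and qEV columns, of which the labels name the latter. By its methods the study sequenced 2 biological replicates, and the labels give 2 small RNA and 2 stranded total RNA libraries. The titles of the small RNA libraries name EX1 and EX2, whereas both total RNA titles name EX1 and the description of the second names EX2, so separate EV preparations are not certain for the total RNA, and its SDs may be technical. There was 1 condition, and no libraries of parental cells or control EVs were analysed here. Therefore the values below describe PC3 EVs alone, and no value is a change between conditions. A level counted over all EVs of a culture cannot tell apart fewer EVs that carry a miRNA and fewer copies in each EV.

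miR-182, miR-96 and miR-183 are cut from hairpins that lie side by side and are thought to be made from a common primary transcript. They are known from sensory organs and are often reported at raised levels in prostate and other carcinomas. The miR-200 family keeps cells in the epithelial state by repressing ZEB1 and ZEB2, which in turn repress the miR-200 genes and CDH1, the gene of E-cadherin. A miRNA selects its targets mainly through the seed, bases 2 to 8 from its 5′ end, so members with a shared seed are expected to share targets.

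The mature sequences of the 8 members were taken from RefSeq on GRCh38.p14 to show which of them a read could be confused with. Capitals mark the seed. The cluster members have 3 different seeds and are encoded on the minus strand of chromosome 7:
miR-182-5p (chr7:129770447-129770470): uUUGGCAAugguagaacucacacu
miR-183-5p (chr7:129774967-129774988): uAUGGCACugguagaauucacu
miR-96-5p (chr7:129774739-129774761): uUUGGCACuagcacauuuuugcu

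The 5 members of the miR-200 family share 2 seeds, which differ from each other by 1 base, and are encoded on the plus strands of chromosomes 1 and 12:
miR-200b-3p (chr1:1167160-1167181): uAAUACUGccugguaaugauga
miR-429 (chr1:1169055-1169076): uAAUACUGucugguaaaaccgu
miR-200c-3p (chr12:6963742-6963764): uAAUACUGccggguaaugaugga
miR-200a-3p (chr1:1167916-1167937): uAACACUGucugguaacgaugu
miR-141-3p (chr12:6964155-6964176): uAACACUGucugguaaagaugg

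Aligned without gaps from the 5′ end, miR-200b-3p and miR-200c-3p differ at 2 of 22 bases (U11G and A22G, miR-200b-3p first, positions counted from the 5′ end), and so do miR-200a-3p and miR-141-3p (C17A and U22G, miR-200a-3p first). miR-182-5p and miR-183-5p differ at 4 of 22 bases, and miR-96-5p differs from miR-182-5p at 11 of 23. The number of mismatches allowed in the authors' mapping is not given in the sources used here, so a few reads of one miR-200 member could have been counted on its neighbour. Each member has 1 genomic copy in the reference. The only other miRNA of the reference with a member's seed is miR-1271-5p, which has the seed of miR-96-5p.

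The libraries held 154185 and 113185 reads counted on miRNAs. Since both count columns have an identical header, the libraries are called first and second by column and have no replicate number here, and paired values below are in that order. Levels are given as CPM, the reads on a name per 1000000 reads counted on miRNAs. A mature miRNA is read whole, and the members are 22 to 24 bases long, so levels were compared between members without a correction for length. How efficiently each sequence was captured and amplified in the library was not measured. Ratios between members are therefore ratios of reads and may differ from ratios of molecules. A single read was worth 6.49 and 8.84 CPM. For a count of 0, the limit was set at 3 reads, or 19.5 and 26.5 CPM. Limits and 95% Wilson intervals cover counting error only, since amplified reads are not independent molecules.

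PC3 EVs carried 2 of the 3 cluster members at high levels and the third, together with the whole miR-200 family, at or near the detection limit. The cluster took 3198 and 2387 reads, a mean of 2.09% ± 0.0246 (SD, n = 2) of all miRNA reads. With 5 names left out of the total that are often doubted as miRNAs (miR-1246, miR-4448, miR-3135b, miR-3182 and miR-7641), the share was 6.21% ± 0.878 (SD, n = 2). The miR-200 family took 11 and 5 reads, a mean of 0.00578% ± 0.00192 (SD, n = 2). The cluster thus had 291 and 477 times the reads of the family. At least 1 read in both libraries was counted for 4 of the 8 members, all 3 of the cluster and 1 of the 5 of the family, where 14.9% of all names in the table had this. A read in either library was counted for 5 members, against 29.6% of all names. At least 10 reads in both were counted for 2 members, against 5.56% of all names.

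**Figure D1:**
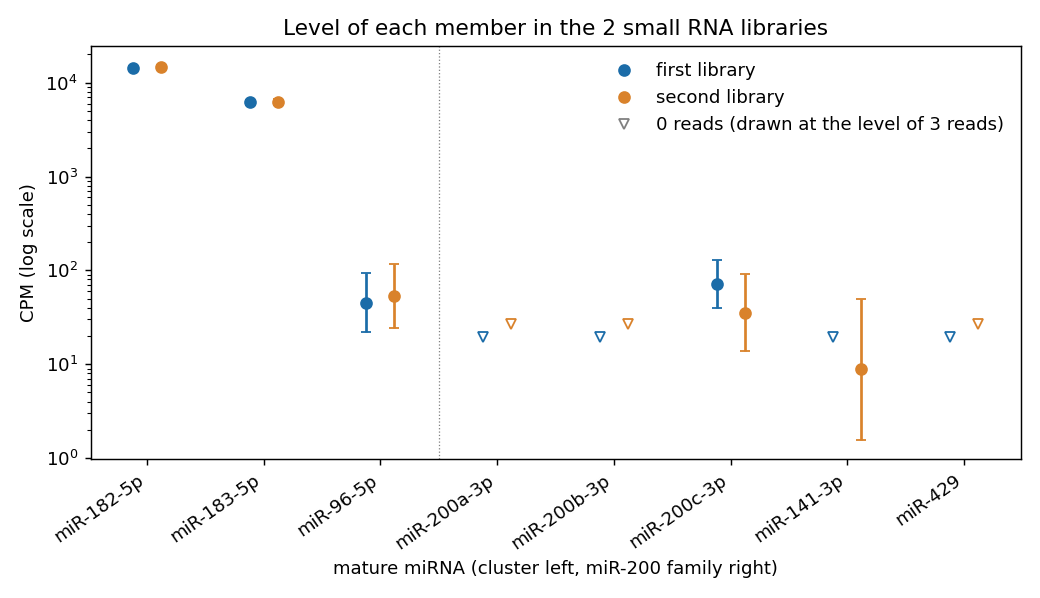
Level of each of the 8 members in CPM on a log axis in the first (blue) and second (orange) small RNA library, with bars for the 95% Wilson interval of the count and open triangles for 0 reads, drawn at the level of 3 reads. miR-182-5p and miR-183-5p stand at means of 14669 and 6197 CPM, and no other member has a mean above 53.3 CPM.

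miR-182-5p, reported to act in prostate and other carcinomas on FOXO and other growth-restraining genes, was the most abundant member. Its 2235 and 1680 reads are 14496 CPM (95% Wilson interval 13911 to 15104) and 14843 CPM (14155 to 15564), a mean of 14669 CPM ± 246 (SD, n = 2). It ranked 10 among all miRNA names in each library. This ranking keeps the doubted names, which all lie above miR-182-5p by mean level. Among them, miR-3182, miR-4448, miR-3135b and miR-1246 ranked 1, 2, 5 and 8. By mean level let-7f-5p, one rank above with 20398 and 21911 CPM, was higher in both libraries, and miR-30d-5p, one rank below with 11700 and 9736 CPM, was lower in both.

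miR-183-5p, the second member by level, had 956 and 701 reads, or 6200 CPM (95% Wilson interval 5821 to 6605) and 6193 CPM (5753 to 6668). The mean was 6197 CPM ± 4.91 (SD, n = 2), an SD far below the counting error of these intervals, and miR-183-5p ranked 21 and 19. Its neighbours by mean level, let-7g-5p at 6238 CPM ± 1837 (SD, n = 2) and miR-23a-3p at 5104 CPM ± 2358 (SD, n = 2), were above it in the first library and below it in the second, so their order is not settled by these data.

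miR-96-5p, whose seed region is mutated in a hereditary form of hearing loss, had 7 and 6 reads. These are 45.4 CPM (95% Wilson interval 22.0 to 93.7) and 53.0 CPM (24.3 to 116), a mean of 49.2 CPM ± 5.38 (SD, n = 2). Both libraries put miR-96-5p below the other cluster members, with intervals that do not overlap theirs. miR-182-5p had 319 and 280 times the reads of miR-96-5p in the first and second library, and miR-183-5p had 137 and 117 times. miR-1271-5p, with the same seed as miR-96-5p, had 0 and 1 reads.

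**Figure D2:**
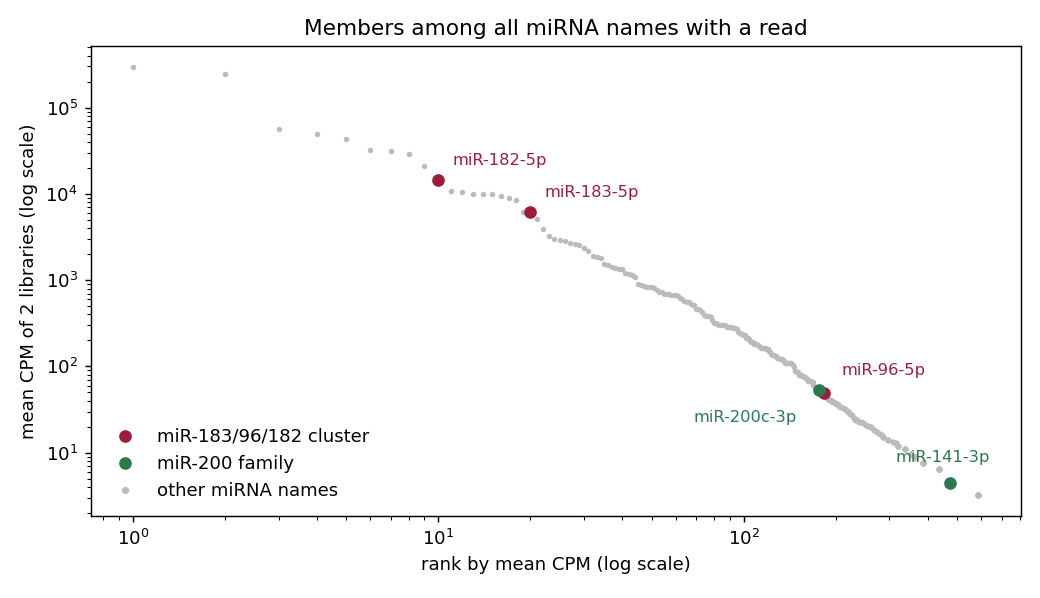
Mean CPM over the 2 libraries of every miRNA name with a read against its rank, both on log axes, with the cluster in red, the miR-200 family in green and other names in grey. miR-182-5p is at rank 10 and miR-183-5p at rank 20, whereas miR-200c-3p and miR-96-5p lie at ranks 177 and 183.

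The proportions of the cluster members were alike in the libraries. miR-182-5p took 69.9% of the cluster reads in the first library (95% exact Clopper-Pearson interval 68.3 to 71.5%) and 70.4% in the second (68.5 to 72.2%). miR-183-5p took 29.9% (28.3 to 31.5%) and 29.4% (27.5 to 31.2%). miR-96-5p took 0.219% (0.0880 to 0.450%) and 0.251% (0.0923 to 0.546%). For each of the 3 members the intervals of the libraries overlap. The ratio of miR-182-5p to miR-183-5p was 2.34 and 2.40, a mean of 2.37 ± 0.0415 (SD, n = 2), and being a ratio within a library it does not depend on depth or scaling.

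The genomic order does not follow these levels. From low to high coordinates on chromosome 7 the hairpins are MIR182 (129770383 to 129770492), MIR96 (129774692 to 129774769) and MIR183 (129774905 to 129775014), spanning 4632 bases. MIR96 and MIR183 are 135 bases apart, and 4199 bases separate MIR96 from MIR182. All 3 lie in introns of an unnamed lncRNA gene (ENSG00000286380) of GENCODE release 44. The hairpins of the highest and the lowest member are shown with both annotated arms in capitals:
MIR182: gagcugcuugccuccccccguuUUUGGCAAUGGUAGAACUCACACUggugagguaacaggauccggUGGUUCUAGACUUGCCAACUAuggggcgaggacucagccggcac
MIR96: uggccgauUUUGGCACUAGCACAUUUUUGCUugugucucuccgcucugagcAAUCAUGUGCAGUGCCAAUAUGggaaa

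Nearly all reads of these hairpins were on the 5p arm, the one usually named as the main arm. miR-182-3p had 3 and 5 reads, so that miR-182-5p made up 99.9% of the reads of its hairpin in one library and 99.7% in the other, with lower bounds of the 95% exact interval of 99.6% and 99.3%. miR-183-3p had 1 and 3 reads, which left 99.9% and 99.6% to miR-183-5p, with lower bounds of 99.4% and 98.8%. No read of miR-96-3p was counted in either library. With 7 and 6 reads on the 5p arm, the share of the 5p arm of MIR96 could be as low as 59.0% and 54.1%. Of the 7 other arms of member hairpins in the table, these of MIR182 and MIR183 were the 2 with a read. That is near the 29.6% of all names with a read in either library. The 5p arms of the miR-200 hairpins had none.

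To see how far members of other genomic groups lie apart, hairpins on 1 strand with at most 10000 bases between neighbours were grouped. A hairpin was used if both of its arms are in the table and in the reference and have 1 genomic copy, and a group if it kept several such hairpins and its top member had at least 100 reads in all, which left 7 groups beside the cluster. The rule was set after the levels were seen, and the groups serve as a description. miR-182-5p had 298 times the mean CPM of miR-96-5p. The top member of the other groups had from 1.01 times to at least 434 times the CPM of the lowest, with a median of 5.81, and 1 of the 7 spanned more than the cluster. That group pairs let-7b-5p with miR-4763-5p, which had no read, so its fold is a lower bound taken against 3 reads in each library.

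**Figure D3:**
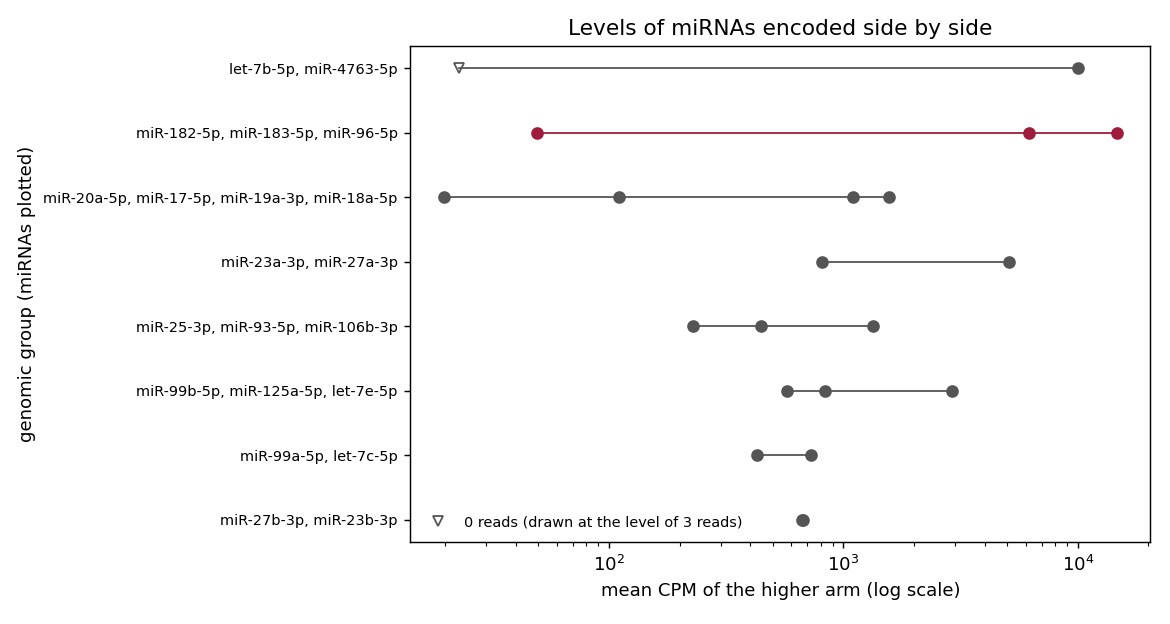
Mean CPM over the 2 libraries, on a log axis, of the higher arm of each usable hairpin in 8 genomic groups of miRNAs, 1 line for each group, with the miR-183 cluster in red and an open triangle for 0 reads. miR-96-5p at 49.2 CPM is set apart from miR-183-5p at 6197 CPM and miR-182-5p at 14669 CPM.

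In the miR-200 family, most reads were on miR-200c-3p, a repressor of ZEB1 and ZEB2. It had 11 and 4 reads, or 71.3 CPM (95% Wilson interval 39.8 to 128) and 35.3 CPM (13.7 to 90.9), a mean of 53.3 CPM ± 25.5 (SD, n = 2). The first library is higher, but the intervals overlap. Its mean differs from that of miR-96-5p by less than its SD, and their order changes between the libraries. miR-141-3p, encoded 330 bases from MIR200C in the same host gene, had 0 and 1 reads.

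No read was counted on miR-200b-3p, miR-200a-3p or miR-429, the 3 members of chromosome 1, in either library. A count of 0 of 154185 reads allows a share of up to 0.00195% for each, and 0 of 113185 allows up to 0.00265%. Their hairpins lie within 1984 bases, from MIR200B (1167104 to 1167198) through MIR200A (1167863 to 1167952) to MIR429 (1169005 to 1169087), and no other GENCODE gene overlaps them. All reads of the family, 11 and 5, were therefore on the pair of chromosome 12, MIR200C (6963699 to 6963766) and MIR141 (6964097 to 6964191), which lie in introns of MIR200CHG. By seed, the AAUACUG members had 11 and 4 reads and the AACACUG members had 0 and 1. At this depth the members with 0 reads cannot be ordered among themselves or set apart from miR-141-3p.

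The order of the levels was thus miR-182-5p, then miR-183-5p, then miR-200c-3p and miR-96-5p, which were not told apart, and then miR-141-3p and the 3 members without a read. By Euclidean distance of log2(CPM + 1) over the 2 libraries, the names nearest to miR-182-5p were miR-30d-5p (0.68), miR-151a-3p (0.71) and let-7f-5p (0.75). Those nearest to miR-200c-3p were let-7b-3p (0.14), with 10 and 4 reads, and miR-106b-5p and miR-340-5p (0.31 each), with 11 and 5 reads each. With 2 libraries these distances measure a like level more than a like pattern.

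Whether the abundant members differed between the libraries depended on the total they were divided by. Second against first library, scaled by all miRNA reads, the CPM ratio was 1.02 for miR-182-5p and 0.999 for miR-183-5p, and it was 1.17 for miR-96-5p and 0.495 for miR-200c-3p. For all 4 members with reads in both libraries the Wilson intervals of the libraries overlap, where the intervals did not overlap for 12.7% of the names with at least 1 read in both and for 32.6% of the 144 names with at least 10. With 4 members, no difference from these shares can be read. Of the 144 names, 5 had a log2 ratio closer to 0 than miR-182-5p with this scaling, 42 with TMM, a scaling to the bulk of the names, and 34 with DESeq2 size factors.

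The median log2 ratio of the 144 names was -0.30 by library total, so a typical name was lower in the second library. miR-182-5p stood 0.33 and miR-183-5p 0.30 above this median on the log2 scale, a difference that no scaling of whole libraries can change. Of the 144 names, 38 had a higher ratio than miR-182-5p and 41 a higher ratio than miR-183-5p, so neither stood out. The other scalings were tried on this comparison after the data were seen. With TMM, miR-182-5p was 1.15 times as high in the second library and its intervals no longer overlapped, as for 27.1% of the 144 names. With DESeq2 size factors it was 1.13 times as high and its intervals did not overlap either, as for 27.8% of them. The intervals of miR-183-5p overlapped under both, with ratios of 1.13 and 1.10. With the 5 doubted names left out of the total, miR-182-5p took 3.903% and 4.804% of the rest and miR-183-5p 1.669% and 2.005%, ratios of 1.23 and 1.20. The intervals then did not overlap for either of them, as for 26.6% of the 139 names left. The 2 libraries belong to 1 condition, so these ratios compare libraries.

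**Figure D4:**
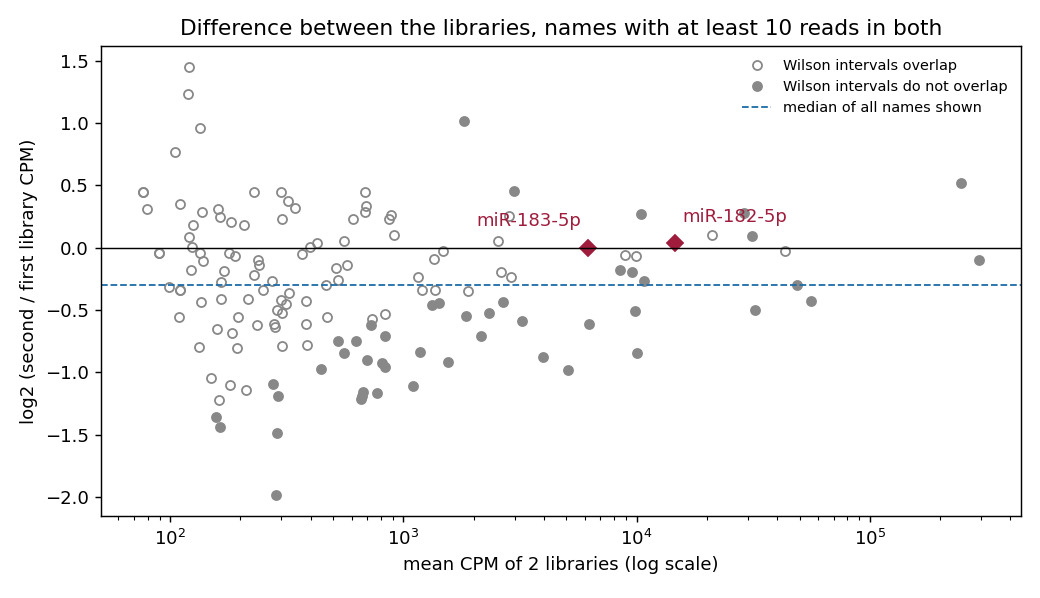
Log2 ratio of CPM, second over first library, against mean CPM on a log axis for the 144 miRNA names with at least 10 reads in both small RNA libraries. miR-182-5p and miR-183-5p (red) lie at 0.03 and -0.00 with scaling by library total, above the median of all names at -0.30 (dashed line), and filled circles are names whose Wilson intervals do not overlap.

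Among other miRNAs of epithelial cells, miR-31-5p, also linked to metastasis, had 58 and 20 reads. Of 6 such names in the table, it was the 1 with a read in both libraries, a share near the 14.9% of all names, and 3 had none in either, among them miR-205-5p, a marker of basal prostate epithelium, and miR-203a-3p, of stratified epithelium. Apart from the liver name given below, markers of other cell types were low as lists. The 7 blood cell names had 6 and 8 reads in sum, of which miR-486-5p had 6 and 7, while miR-451a, miR-223-3p and miR-142-3p had 0. The 2 endothelial names had 6 and 3 reads, the 5 mesenchymal names 2 and 1, and the 3 striated muscle names 1 and 0. miR-122-5p, the main miRNA of hepatocytes and a common serum miRNA, had 39 and 26 reads, 241 CPM ± 16.4 (SD, n = 2), more than the miR-200 family in both libraries. The part of serum RNA in the levels of the members was not tested.

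In the total RNA libraries of PC3 EVs no read was counted on the hairpins of the members. These libraries hold 489170 reads on genes in replicate 1 and 475942 in replicate 2, and 3 reads are 6.13 and 6.30 CPM of gene reads. None of the 8 hairpin genes (MIR182, MIR183, MIR96, MIR200A, MIR200B, MIR200C, MIR141 and MIR429) had a read, and neither did MIR200CHG, the lncRNA that hosts MIR200C and MIR141. Of 1566 hairpin genes in this table, 0.83% had a read in both replicates and 2.17% in either, so a count of 0 is the usual result for a hairpin in this assay. ENSG00000286380, around the cluster hairpins, is not among the genes of the table used here.

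Genes linked to the members by earlier work were then examined in the total RNA, as a list of 9 for the miR-200 family and 12 for the cluster. Of the 21 genes, 12 were detected in both replicates with 1 read or more, against 21.9% of all protein-coding genes and 9.63% of all genes. With at least 10 reads in both there were 7, against 11.6% of protein-coding genes. By list, a read in both replicates was counted for 6 of 9 genes of the miR-200 family and 6 of 12 of the cluster. These shares are a description. In replicate 1, 67.3% of the genes with a read had an even count, and in replicate 2 64.8%, whereas a count of 1 read made up 4.77% and 6.10%. Whether both reads of a pair were counted was not tested.

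Among the genes of the miR-200 family, ZEB1 had 0 reads in replicate 1 and 22 in replicate 2, and ZEB2 had 0 in both. Their antisense genes ZEB1-AS1 and ZEB2-AS1, which share exon bases with them, had 0 and 0 and 0 and 14 reads. CDH1, which these repressors hold down, had 4 and 14 reads, but 347 bases of its exons lie opposite a lncRNA gene with 8 and 20 reads, and without a stated strand setting the source of reads in the shared stretch cannot be told apart. The Wilson intervals of the replicates overlap for CDH1. Over both lists they do not overlap for 6 of the 18 genes with a read in either replicate (ZEB1, FN1, SUZ12, FOXO3, SLC39A1 and CYLD), against 44% of such protein-coding genes. If both reads of a pair were counted, all these intervals are too narrow. Calls on few reads, as for CYLD and SUZ12, are then the least certain. MSN, a membrane to actin linker of motile cells, had 93 and 92 reads, 192 CPM ± 2.25 (SD, n = 2), and was the steadiest of the list together with ZFPM2, a transcriptional cofactor, with 52 and 49 reads. BMI1, a Polycomb protein, had 57 and 71 reads, and SUZ12, of another Polycomb complex, had 10 and 0. QKI, an RNA-binding splicing regulator, had 42 and 20 reads, and FN1, the gene of fibronectin, had 34 and 2.

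Among the genes linked to the cluster, NDRG1, a stress-responsive gene often described as a suppressor of metastasis, had 80 and 90 reads, 176 CPM ± 18.1 (SD, n = 2). FOXO3 had 69 and 24 reads, while FOXO1, a related transcription factor, had 0 and 6. EZR, the gene of the membrane linker ezrin, had 30 and 37 reads, with an antisense gene over 24 bases of exon that had 39 and 22. MTSS1, an actin regulator, had 16 and 4 reads, ITGB1, an integrin subunit, 10 and 8, and EGR1, an early response factor, 8 and 12. SLC39A1, a zinc importer of prostate cells, had 0 and 22 reads, CYLD, a deubiquitinase, 0 and 8, and ADCY6, an adenylate cyclase, 0 and 6. These counts are uncertain by strand as well: genes on the opposite strand that share exon bases had 0 and 7 reads for SLC39A1, 44 and 12 for CYLD and 0 and 13 for ADCY6. No read was counted on RECK, an inhibitor of metalloproteinases, or on PDCD4, an inhibitor of translation. For 5 of the 21 genes the reads were in replicate 2 alone and for 1, SUZ12, in replicate 1 alone. Over all genes, too, replicate 2 had more with a read, 9052 against 7754 in replicate 1, and 5592 had a read in both. With so few genes listed, no difference from all genes can be read. Without a comparison to cells or EVs that lack the members, these counts cannot show an effect of a miRNA on its targets.

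**Figure D5:**
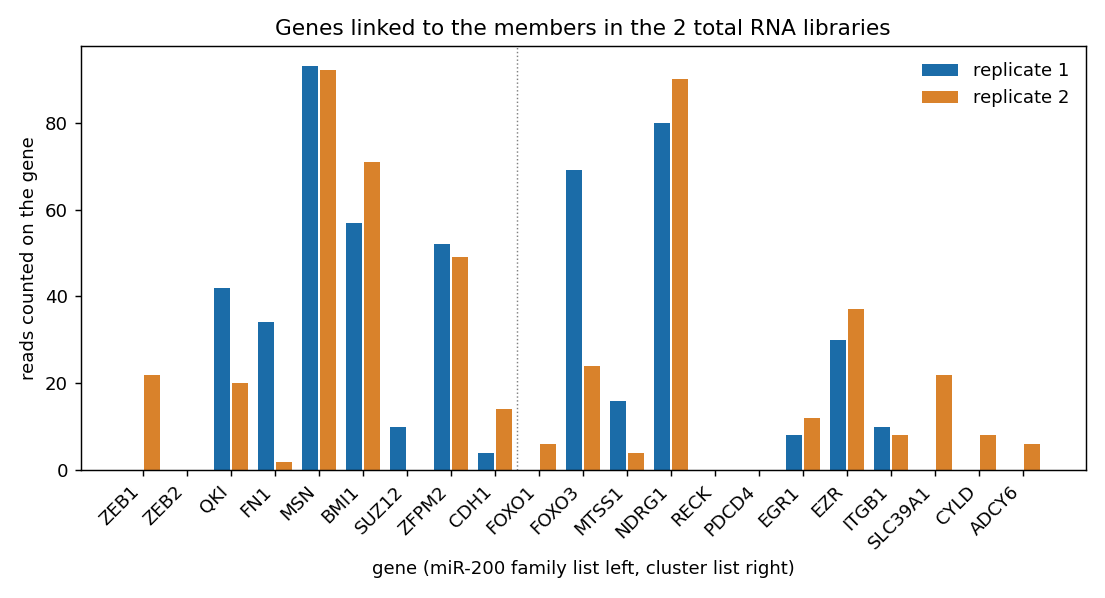
Reads counted on each of 21 genes linked to the miR-200 family (left of the dotted line) or to the miR-183 cluster (right) in total RNA replicate 1 (blue) and replicate 2 (orange). MSN and NDRG1 have 80 to 93 reads in each replicate, and ZEB2, RECK and PDCD4 have none.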

How the data were processed

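RNA from PC3 EVs was sequenced by the study as 2 small RNA and 2 stranded total RNA libraries. Raw counts per mature miRNA were deposited by the authors, who name Cutadapt for trimming, SHRiMP for mapping and SAMtools, as were raw counts per Ensembl gene on GRCh38 from HTSeq. Versions, mismatches allowed, strand setting and treatment of reads with several matches are not given in the sources used here.

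Counts were divided by the reads on miRNAs (154185 and 113185) or on genes (489170 and 475942) and multiplied by 1000000. HTSeq's lines that name no gene (97.5% of records in replicate 1 and 97.8% in replicate 2) were left out of these totals. Shares carry 95% Wilson intervals, shares within a hairpin or the cluster exact Clopper-Pearson intervals, and means the SD of 2 libraries. With 1 condition there was no test between groups. A name was called apart between libraries where its Wilson intervals do not overlap. Alternatives were TMM scaling (edgeR 4.0.16), DESeq2 1.42.0 size factors, other totals and read minimums, and leaving out a library. Sequences came from RefSeq, which matched 2281 of the 2588 names, and positions from GENCODE release 44. Intervals were made with scipy 1.17.1 under Python 3.11.15.

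The members and lists were chosen with earlier results of these data known. Named were the members, the other arms of their hairpins, names with a member's seed, the 3 names nearest in level to miR-182-5p and to miR-200c-3p, the hairpin and host genes, markers of other cell types and genes linked to the members. let-7g-5p, miR-23a-3p and miR-4763-5p were named after their values were seen.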

Additional observations from a re-analysis of the deposited data

How the results depend on the processing

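No paired analysis was possible because only 1 condition was sequenced and the small RNA columns have identical headers without replicate numbers.

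Leaving miR-1246, miR-4448, miR-3135b, miR-3182 and miR-7641 out of the library total raised the share of the cluster to 6.21% and that of the miR-200 family to 0.0168%, since the total is smaller. TMM scaling, DESeq2 size factors and a total over names with at least 10 reads in both libraries left both shares within 1 SD, although TMM raised the SD of the cluster share to 0.201%. For miR-183-5p the SD of the share rose from 0.000491% by library total to 0.0518% with TMM and 0.0417% with DESeq2 size factors. With a library left out, the cluster share was from 2.07 to 2.11% and that of the family from 0.00442 to 0.00713%. The cluster to family ratio was 385 with both arms summed, and from 291 to 477 with a library left out. With at least 10 reads required in both, 2 members and 7 of the 21 linked genes were detected. With a read in either, there were 5 members and 18 genes, where 29.6% of all names and 8296 of 19629 protein-coding genes had this. With a library left out, from 4 to 5 members and from 13 to 17 genes were detected. By single library, 622 and 529 of the 2588 names had a read. In the total RNA, 7754 and 9052 of 58051 genes had a read in replicates 1 and 2. The number of members whose intervals did not overlap between libraries rose from 0 to 1 with TMM and to 1 with DESeq2 size factors, and to 2 without those 5 names in the total, all chosen after seeing the data. Depth limits the miR-200 members and miR-96-5p, which rest on 11 reads or fewer in a library.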

Other observations

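Short motifs have been described in miRNAs that are sorted into EVs, among them GGAG and GGCU. Searched on the mature strand, GGAG occurs in 0 of the 8 members and in 15.7% of the 2281 names with a sequence, which took 9.56% and 9.77% of the reads of those names in the first and second library. GGCU occurs in 0 of the 8 members and in 12.4% of the names, which took 29.7% and 38.0% of the reads. A single abundant name can make up much of such a share of reads, and miR-4448, one of the doubted names, ranked 2 by mean level. The shares were not split by name or taken without the doubted names. They therefore do not show that either motif is widespread among the miRNAs of these EVs. A lack of a match says only that these letters are not in the mature sequence. All 8 members start with U, as do 36.7% of the names, and their G and C content is from 36.4 to 43.5%, against a median of 52.2% over the names.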
